A study of Mus musculus with 4 samples.

Results

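The regions described here are the MIZ-1 chromatin immunoprecipitation (ChIP-seq) peaks of mouse splenic B cells whose nearest annotated transcription start site belongs to an olfactory or vomeronasal receptor gene. They were chosen by gene symbol, taking every gene whose symbol begins with Olfr, Vmn1r or Vmn2r in the GENCODE basic annotation of mm10, pseudogenes included. This gave 481 of 34207 peaks in the list from MIZ-1WT cells (1.41%, 95% Wilson interval 1.29 to 1.54) and 1163 of 78356 peaks in the list from MIZ-1DPOZ cells (1.48%, 1.40 to 1.57). In the MIZ-1WT list 361 of these peaks were nearest a protein-coding receptor gene and 120 a pseudogene, and in the MIZ-1DPOZ list 855 and 308 were.

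Odorant receptors and the type 1 and type 2 vomeronasal receptors are families of G protein-coupled receptors that detect odours and pheromones. Their genes lie in large clusters on many chromosomes, an olfactory neuron typically expresses a single odorant receptor allele, and the clusters are kept silent in other cell types, B cells among them. MIZ-1, encoded by Zbtb17, is a zinc finger transcription factor whose POZ domain mediates its assembly with itself and with partner proteins, and it is known for binding at the start sites of active genes. The receptor clusters are thus a stretch of genome where MIZ-1 peaks can be described away from active promoters.

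The series held 4 libraries, 1 input and 1 ChIP library for each genotype, from B220+ splenocytes of C57BL/6 mice aged 40 to 70 days that had been selected on magnetic beads. MIZ-1DPOZ cells carried a Miz-1 allele with a floxed POZ domain that was deleted by MB1-Cre, a recombinase driven by the B-cell promoter of Cd79a, and the protein that remains lacks the POZ domain but keeps its zinc fingers. Both ChIP libraries were made with the H-190 antibody against MIZ-1. Neither the number of animals behind a library nor whether they were pooled is stated, the deletion of the POZ domain and the B-cell identity of the cells cannot be checked in lists of peaks, and the control strain is given as wild type with no statement on Cre. With 1 ChIP library per genotype no test was possible. Differences between the lists below are differences between these libraries, and the intervals cover counting error only. The sequencing depth of the libraries is unknown, but the local background of the peak caller placed the MIZ-1DPOZ ChIP library at 1.34 times the depth of the MIZ-1WT library.

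Most of the receptor peaks lay on sequence that occurs many times in the genome, so the sequences are shown before the values. The 100 bases on either side of each summit were compared, and peaks that shared at least 3 stretches of 31 bases, on either strand, were joined into sequence groups after repetitive stretches of short period had been set aside. The peaks of both lists together covered 1410 places, of which 349 stood alone and the others fell into 55 groups. For the 6 largest groups the strongest peak that carried the most common 31 bases of the group is printed, on the plus strand of GRCm38, with those 31 bases in capitals. Repeats are left unnamed.
Vmn1r47 chr6:90027527-90027727: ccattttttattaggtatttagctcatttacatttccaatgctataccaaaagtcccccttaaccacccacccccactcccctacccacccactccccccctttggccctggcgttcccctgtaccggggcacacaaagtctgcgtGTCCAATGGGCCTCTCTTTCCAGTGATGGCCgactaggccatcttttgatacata
Vmn2r72 chr7:85760198-85760398: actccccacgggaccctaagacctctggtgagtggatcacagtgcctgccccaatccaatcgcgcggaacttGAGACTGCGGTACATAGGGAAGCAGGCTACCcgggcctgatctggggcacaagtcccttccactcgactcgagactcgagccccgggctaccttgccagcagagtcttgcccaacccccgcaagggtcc
Olfr933 chr9:38964798-38964998: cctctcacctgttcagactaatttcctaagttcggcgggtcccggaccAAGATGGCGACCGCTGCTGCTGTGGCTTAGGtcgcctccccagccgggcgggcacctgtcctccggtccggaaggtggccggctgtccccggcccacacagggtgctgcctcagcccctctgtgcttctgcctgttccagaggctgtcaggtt
Olfr335-ps chr2:36299767-36299967: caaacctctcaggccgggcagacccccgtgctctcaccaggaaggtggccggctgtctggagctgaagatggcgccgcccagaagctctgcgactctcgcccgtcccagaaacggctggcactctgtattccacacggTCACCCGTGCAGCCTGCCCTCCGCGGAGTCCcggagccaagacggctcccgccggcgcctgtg
Vmn2r54 chr7:12629025-12629225: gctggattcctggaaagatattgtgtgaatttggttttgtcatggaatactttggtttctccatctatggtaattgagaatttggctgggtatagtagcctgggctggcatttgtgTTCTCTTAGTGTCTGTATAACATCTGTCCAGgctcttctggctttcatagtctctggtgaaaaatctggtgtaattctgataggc
Vmn1r193 chr13:22230453-22230653: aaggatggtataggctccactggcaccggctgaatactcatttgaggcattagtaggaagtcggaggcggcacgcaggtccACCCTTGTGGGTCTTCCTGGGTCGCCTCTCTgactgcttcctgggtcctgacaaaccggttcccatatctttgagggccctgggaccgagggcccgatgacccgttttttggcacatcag

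The largest group, headed by the peak near Vmn1r47, held 373 places on 19 chromosomes, and its peaks had a median GC content of 48.8%. The group was mixed, with GC contents from 33.8 to 63.2%, and its capital stretch was found in 115 places (30.8%). It took in 132 MIZ-1WT and 263 MIZ-1DPOZ peaks, 27.4 and 22.6% of the receptor peaks. Of the peaks elsewhere 16.6 and 11.9% shared its sequence. Among windows tiled every 10 kb, 9.91% in receptor territory and 4.85% in the rest of the genome shared it. Receptor peaks joined the group by matching any member, while other peaks and tiles had to match stretches that recurred among its members. The rules differ and the stretches came from receptor peaks, which favours the share of the receptor peaks. The groups headed by Vmn2r72, Olfr933 and Olfr335-ps were GC-rich, with median GC contents of 62.7, 65.2 and 65.2%, and their windows were in the median 100% masked as repeats. The Vmn2r72 group comprised 136 places, the Olfr933 group 121 and the Olfr335-ps group 76. The capital stretch of the Olfr933 group was read at 11.0% of the MIZ-1WT receptor summits and at 3.87% of the MIZ-1DPOZ ones, against 4.73 and 2.03% of the summits elsewhere. In windows tiled every 10 kb the same 31 bases were present in 0.0681% of those in receptor territory and in 0.0388% of those in the rest of the genome. For the Vmn2r72 group these shares were 4.78 and 4.39% of the receptor summits, 2.64 and 2.16% of the other summits, and 0.159 and 0.0353% of the tiled windows. Each capital stretch, here and in the groups below, was picked as the commonest among the receptor peaks of its group. That choice raises its share at receptor summits, so an excess over other summits is in part built in.

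The remaining groups differed between the lists. The group headed by Vmn2r54 was AT-rich, with a median GC content of 37.8%, and held 47 MIZ-1WT peaks against 10 MIZ-1DPOZ peaks, none of which overlapped a peak of the other list. Its peaks were low, with medians of 9 and 10 fragments at MIZ-1WT and MIZ-1DPOZ summits. The group headed by Vmn1r193 was the opposite, with 2 MIZ-1WT and 41 MIZ-1DPOZ peaks, and the median at its MIZ-1DPOZ summits was 22 fragments. Its capital stretch was carried by 38 of its 41 places, 3.27% of all MIZ-1DPOZ receptor summits and 1.35% of the other MIZ-1DPOZ summits. Neither pattern was restricted to receptor territory. Outside it the Vmn2r54 stretch was read at 0.525% of the MIZ-1WT and 0.0440% of the MIZ-1DPOZ summits. For the Vmn1r193 stretch these shares were 0.231 and 1.35%. Of the tiled windows in receptor territory and in the rest, 0.0907 and 0.0857% held the Vmn2r54 stretch, and 0 and 0.00807% the Vmn1r193 stretch.

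A further pair of promoter peaks is shown, a peak before Vmn2r102 and one that covered the start of Olfr1372-ps1, of which the stretch printed lies beside that start. Here the capitals mark CpG dinucleotides.
Vmn2r102 chr17:19658499-19658699: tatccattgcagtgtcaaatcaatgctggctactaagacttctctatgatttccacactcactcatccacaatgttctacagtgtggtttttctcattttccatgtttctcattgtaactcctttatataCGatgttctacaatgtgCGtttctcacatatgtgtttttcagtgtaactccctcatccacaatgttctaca
Olfr1372-ps1 chr11:52167854-52168054: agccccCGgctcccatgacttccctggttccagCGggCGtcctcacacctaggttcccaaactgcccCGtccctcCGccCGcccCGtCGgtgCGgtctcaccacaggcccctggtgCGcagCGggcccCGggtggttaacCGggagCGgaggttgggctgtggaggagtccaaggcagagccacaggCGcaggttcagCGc

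The peak near the pseudogene Vmn2r-ps139 was the strongest receptor peak of both lists. It spanned chrY:4036535-4036830 in the MIZ-1WT list, 31371 bp downstream of the annotated start, in intergenic sequence. In MIZ-1WT cells 125 fragments were piled up at the summit, a fold enrichment of 41.4 over the local background. The MIZ-1DPOZ peak had 104 fragments and a fold enrichment of 33.4, a depth-scaled ratio of 0.621 (exact binomial interval 0.474 to 0.812). The Vmn2r77 peak, at chr7:86806492-86806739 in an intron of that vomeronasal receptor gene, had 25 fragments in the MIZ-1WT and 19 in the MIZ-1DPOZ library.

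The other leading MIZ-1WT peaks were those of Vmn1r-ps47, Vmn2r72, Vmn2r102 and Vmn2r77. At Vmn1r-ps47 the window matched itself at a shift of 6 bp in 73.8% of positions, and the peak, in an intron at chr7:10284945-10285213, had 34 fragments in the MIZ-1WT library and 48 in the other. The Vmn2r102 peak, at chr17:19658534-19658722 and with its edge at -1606 bp from the start site (negative values lie before it), was the highest MIZ-1WT peak in a receptor promoter window. It had 26 fragments and a fold enrichment of 14.5, and no MIZ-1DPOZ peak overlapped it. Its GC content was 37.3% with 2 CpG dinucleotides, and it matched itself best at a shift of 59 bp, in 43.0% of positions. A shift of 57 bp gave 52.8% at the strongest of the peaks near Vmn1r-ps2, at chr4:3089540-3090455, which had 46 fragments in the MIZ-1WT and 33 in the MIZ-1DPOZ library. Over 40% self-match at some shift of 2 to 100 bp was seen in 31.4% of the MIZ-1WT and 22.1% of the MIZ-1DPOZ receptor windows, less often than in all windows around summits (47.3 and 39.1%), while 20.6% of the tiles in receptor territory passed the same limit.

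Vmn2r-ps139 and Vmn2r72 were among the 5 leading peaks of both lists. In the MIZ-1DPOZ list Vmn2r-ps139 was followed by peaks near Vmn1r47 with 90 fragments, Vmn2r72 with 97, Olfr933 with 85 and Olfr1504 with 93, against 23, 39, 24 and 20 fragments at their MIZ-1WT partners. The last of these lay in a promoter window, at chr19:13899573-13900380 and -1645 bp from the start of the odorant receptor gene Olfr1504. The summit sequences of all 4 were 100% masked and occurred between 921 and 2883 times in the genome.

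The receptor peaks were richer in repeats than peaks in general. A summit was counted as repeat when over 50% of this window was soft-masked in the reference genome, and as multi-copy when the 5 sequences of 50 bases read around it occurred, in the median, more than 1 time in the genome. By the first measure 453 of 481 MIZ-1WT receptor peaks (94.2%, 91.7 to 95.9) and 1046 of 1163 MIZ-1DPOZ receptor peaks (89.9%, 88.1 to 91.5) were repeat, against 60.4 and 56.0% of all peaks. By the second, 387 (80.5%, 76.7 to 83.8) and 855 (73.5%, 70.9 to 76.0) were multi-copy, against 48.2 and 43.1% of all peaks. The DNA of the clusters was itself rich in repeats, but less so than the peaks: 46.9% of the windows tiled over receptor territory were repeat and 24.2% were multi-copy, compared with 30.2 and 13.4% in the rest of the genome. The median number of genomic copies was 261 for MIZ-1WT and 40 for MIZ-1DPOZ receptor summits, and 1 for summits of both lists elsewhere. A high repeat share was not particular to the receptors, since peaks near defensin genes were repeat in 91.7% (of 12) and 88.9% (of 36) of cases and those near trace amine and taste receptor genes in 91.7% (of 12) and 80.5% (of 41). Peaks near keratin genes stood at 32.3 and 22.7%.

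**Figure D1:**
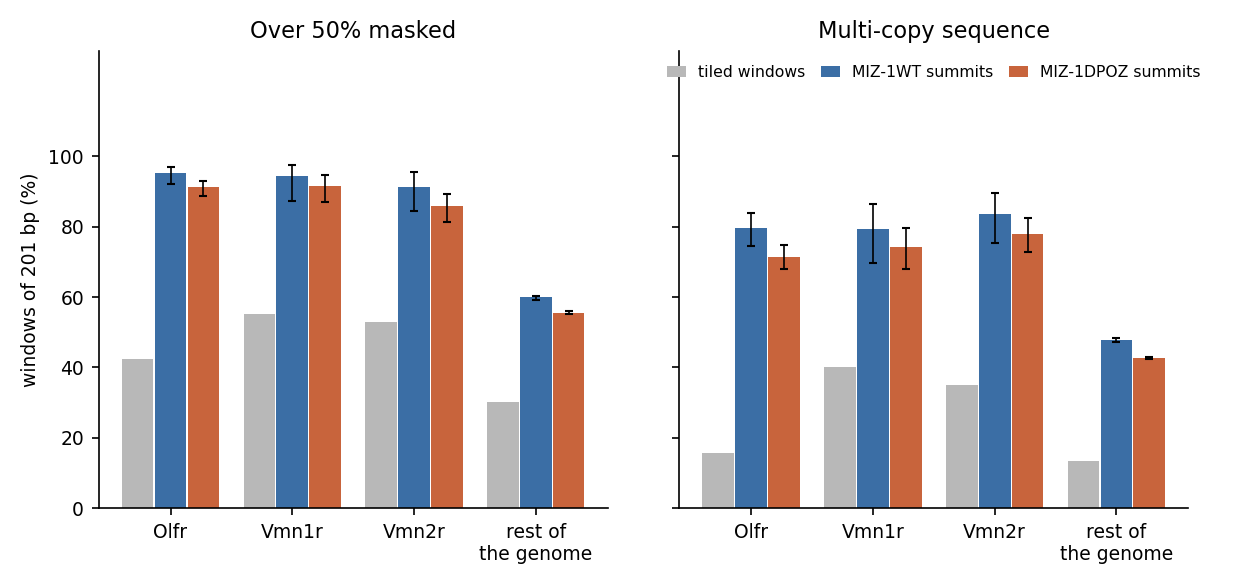
Share of windows around a summit or tile over 50% masked (left) or multi-copy (right), in percent, for windows tiled over the territory (grey) and for MIZ-1WT (blue) and MIZ-1DPOZ (orange) summits, with 95% Wilson intervals. In each receptor family the summits stood above the tiled windows, for example 95.2 and 91.2% masked for Olfr against 42.3% of the tiles, and above the summits of the rest of the genome at 59.9 and 55.5%.

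The 3 families resembled one another in this respect. The repeat share was 95.2% (92.1 to 97.1) for the 290 MIZ-1WT peaks near Olfr genes, 94.3% (87.2 to 97.5) for the 87 near Vmn1r genes and 91.3% (84.4 to 95.4) for the 104 near Vmn2r genes, and these intervals overlapped. In the MIZ-1DPOZ list it was 91.2, 91.5 and 85.8% of 668, 213 and 282 peaks. Peaks nearest pseudogenes were repeat in 92.5 and 88.0% of cases, and those nearest protein-coding receptor genes in 94.7 and 90.6%. Summits that were neither multi-copy nor over 50% masked numbered 25 in the MIZ-1WT and 85 in the MIZ-1DPOZ list.

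Base composition differed as well. The median GC content at the summit was 52.2% (49.3 to 55.2) for MIZ-1WT and 57.7% (56.7 to 58.2) for MIZ-1DPOZ receptor peaks, below the 60.7 and 60.2% of peaks elsewhere and above the mean of 38.6% in the tiles of receptor territory. Summits with a GC content under 45% made up 33.5% of the MIZ-1WT and 9.20% of the MIZ-1DPOZ receptor peaks, and 19.2 and 5.75% of the others. Median peak heights were close, with 9 and 13 fragments at MIZ-1WT and MIZ-1DPOZ receptor summits beside 9 and 12 elsewhere. Tall peaks were more frequent near receptors, where 6.24 and 25.7% of summits had at least 20 fragments, against 3.80 and 16.3% elsewhere. The E-box CACGTG, bound by MYC, a partner of MIZ-1, was read on 1.04% of MIZ-1WT and 2.41% of MIZ-1DPOZ receptor summits, against 3.28 and 3.47% of the other summits and 1.25 and 1.96% of the tiles in receptor territory and in the rest.

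The territory of the receptor genes, all bases whose nearest start site is one of theirs, covered 44 Mb, 1.66% of the sequenced genome. Its 1972 annotated genes comprised 1466 protein-coding genes, 505 pseudogenes and 1 gene of another class. It held 10.9 MIZ-1WT peaks per Mb (exact Poisson interval 9.97 to 11.9) and 26.4 MIZ-1DPOZ peaks per Mb (24.9 to 28.0), against 13.0 and 29.6 in the rest of the genome. The densities were thus 0.843 (0.770 to 0.922) and 0.891 (0.840 to 0.944) times those of the rest. By family the MIZ-1WT densities were 10.9 per Mb for Olfr, 11.7 for Vmn1r and 10.5 for Vmn2r territory, and the MIZ-1DPOZ densities 25.1, 28.5 and 28.4. Among other clustered families of tissue-restricted genes, keratin and keratin-associated genes (Krt and Krtap) held 16.2 and 50.6 peaks per Mb, defensin genes (Defa and Defb) 7.34 and 22.0, and trace amine and taste receptor genes (Taar, Tas1r and Tas2r) 8.98 and 30.7.

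The place of the receptor clusters relative to the genome depended on what they were compared with. Their territory was poorer in GC (38.7% against 41.7%) and richer in masked bases (50.0% against 36.2%) than the rest. When the rest was reweighted to the same GC content in bins of 1 kb, the receptor bins held 482 MIZ-1WT summits where 299 were computed, a ratio of 1.61 (1.47 to 1.76), and 1164 MIZ-1DPOZ summits where 602 were computed, a ratio of 1.93 (1.83 to 2.05). In bins of 50 to 55% GC, for instance, there were 93.0 MIZ-1WT and 308 MIZ-1DPOZ summits per 1000 receptor bins and 32.8 and 108 per 1000 other bins. After reweighting to GC and masked share together the ratios were 0.929 (0.848 to 1.02) and 1.09 (1.03 to 1.16). The ratio was lowest for single-copy summits alone, with 2.14 MIZ-1WT and 7.0 MIZ-1DPOZ peaks per Mb of receptor territory against 6.77 and 17.0 in the rest.

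**Figure D2:**
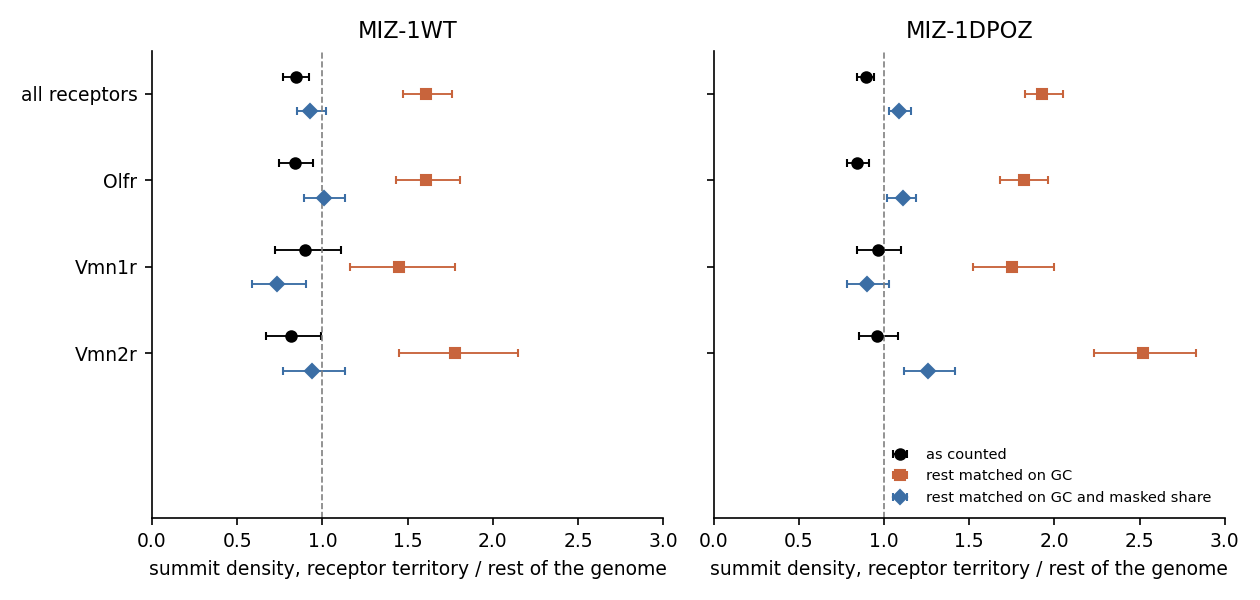
Ratio of summit density in receptor territory to that in the rest of the genome, for all receptors and each family, with exact Poisson intervals; black circles are as counted, orange squares use a rest matched on GC and blue diamonds a rest matched on GC and masked share. The dashed line marks equal density. For all receptors the MIZ-1DPOZ ratio went from 0.892 as counted in bins to 1.93 and then 1.09.

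Matching brought out differences among the families. With GC and masked share matched, the MIZ-1DPOZ ratio was 1.26 (1.12 to 1.42) for Vmn2r, 1.11 (1.02 to 1.19) for Olfr and 0.902 (0.785 to 1.03) for Vmn1r territory. The MIZ-1WT ratio was 0.734 (0.588 to 0.906) for Vmn1r, and the intervals for Olfr (1.01) and Vmn2r (0.937) included 1.

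Few receptor peaks were at promoters. Promoter windows ran from 2000 bp upstream to 1000 bp downstream of a start site, and a peak whose nearest edge fell in the window, or which covered the start, was assigned to it. This held for 41 of 481 MIZ-1WT receptor peaks (8.52%, 6.35 to 11.4) and 111 of 1163 MIZ-1DPOZ receptor peaks (9.54%, 7.99 to 11.4), against 26.1 and 21.5% of all peaks. Because the genes are densely packed, promoter windows took up 19.3% of receptor territory and 6.06% of the rest. Summits were sparser inside the receptor promoter windows than outside them, with 4.23 (2.96 to 5.85) against 12.5 (11.4 to 13.8) per Mb for the MIZ-1WT list and 11.6 (9.45 to 14.2) against 30.0 (28.2 to 31.8) for the MIZ-1DPOZ list. In the rest of the genome the order was the reverse, with 55.6 against 10.2 and 103 against 24.9 summits per Mb.

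**Figure D3:**
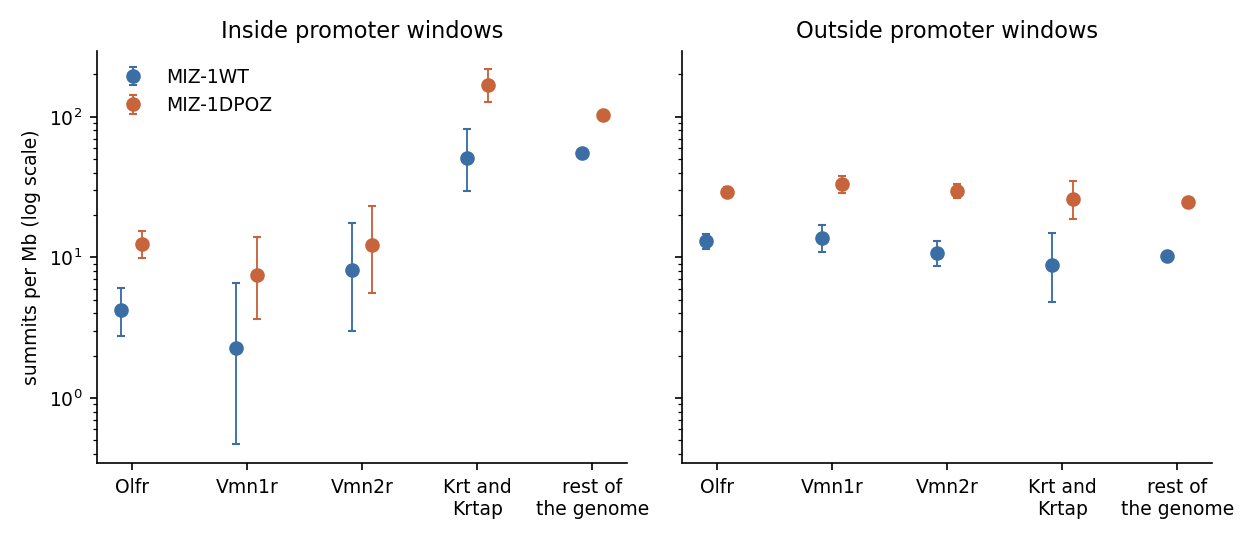
Summits per Mb on a log scale inside (left) and outside (right) promoter windows, in MIZ-1WT (blue) and MIZ-1DPOZ (orange) cells, with exact Poisson intervals. Outside promoter windows the receptor families lay somewhat above the rest of the genome, at 10.7 to 13.7 against 10.2 per Mb in MIZ-1WT cells. In MIZ-1DPOZ cells these values were 29.1 to 33.1 against 24.9. The MIZ-1WT interval for Vmn2r (8.66 to 13.0) included the value of the rest. Inside promoter windows the families lay far below it: 4.19 and 12.4 per Mb for Olfr against 55.6 and 103.

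The keratin families did not share this pattern, with 50.8 MIZ-1WT and 167 MIZ-1DPOZ summits per Mb of promoter window, whereas the defensin windows held 0 (up to 15.2) and 12.3 per Mb and those of the trace amine and taste receptors 0 (up to 21.5) and 5.84. By family the promoter share of peaks was 10.3 and 13.2% for Olfr, 5.75 and 6.10% for Vmn1r and 5.77 and 3.55% for Vmn2r genes.

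Counted by gene, 39 of 1972 receptor genes (1.98%, 1.45 to 2.69) had a MIZ-1WT promoter peak and 102 (5.17%, 4.28 to 6.24) a MIZ-1DPOZ promoter peak, against 13.8 and 24.6% of all genes. Both lists had one at 22 receptor genes, the MIZ-1WT list alone at 17 and the MIZ-1DPOZ list alone at 80. Over all genes these counts were 6165, 1491 and 7441. Of the protein-coding receptor genes 1.98 and 5.46% had a promoter peak, and of the receptor pseudogenes 1.98 and 4.36%, so that the classes overlapped in both lists. Outside the families the protein-coding genes stood at 29.3 and 46.8% and the pseudogenes at 4.59 and 11.5%.

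The promoter peaks of receptors were again mostly repeat, 36 of 41 in the MIZ-1WT and 91 of 111 in the MIZ-1DPOZ list. Their summits were multi-copy in 68.3 and 52.3% of cases, compared with 81.6 and 75.8% of the receptor peaks away from promoters. The strongest MIZ-1DPOZ promoter peaks of protein-coding receptors after Olfr1504 were at Olfr1154 with 56 fragments and at Olfr294 with 51, and their MIZ-1WT partners had 15 and 13. At Olfr1420 overlapping peaks in an intron of that gene had 12 MIZ-1WT and 31 MIZ-1DPOZ fragments. Their summits lay apart, at chr19:11893685 and chr19:11894074, with GC contents of 35.3 and 48.8%. An Olfr1271 peak of 30 fragments, by contrast, had no MIZ-1WT partner. In the MIZ-1WT list Olfr316 and Olfr15 followed, both with 12 fragments at a single-copy summit. The first overlapped a MIZ-1DPOZ peak of 9 fragments, and the second overlapped none. The shared promoter peak with the largest significance in its weaker list was that of the pseudogene Olfr335-ps, with 22 and 78 fragments. It was followed by Olfr1504, by Olfr363-ps with 16 and 75 fragments, by Olfr1420 and by Vmn2r44 with 13 and 22. At Olfr928-ps1 a MIZ-1DPOZ peak of 58 fragments lay 989 bp after the start site, and its MIZ-1WT partner, with 8 fragments, began 1286 bp after it, outside the promoter window.

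With multi-copy summits and those over 50% masked left out, 5 MIZ-1WT and 19 MIZ-1DPOZ promoter peaks remained. Those of the MIZ-1WT list were at Vmn2r102, Olfr1372-ps1, Vmn2r80, Olfr852-ps1 and Vmn2r125. The Olfr1372-ps1 peak, at chr11:52167829-52168196, covered the annotated start and was the sole receptor peak of the MIZ-1WT list to do so. Its window, printed above, had a GC content of 70.6%, 16 CpG dinucleotides and no masked base. It had 16 fragments in the MIZ-1WT and 14 in the MIZ-1DPOZ library, a depth-scaled ratio of 0.653 (0.295 to 1.43). Its nearest start site outside the receptor families, that of Gm12206, was 20757 bp away. In the MIZ-1DPOZ list the highest of these peaks were at Olfr322 with 19 fragments, Vmn1r27 and Olfr503 with 16 each, and Olfr545, whose start was covered, with 15. Olfr94 had a pair of such peaks, of 12 and 9 fragments, the stronger at 73.1% GC with 25 CpG dinucleotides. None of the 41 MIZ-1WT and 1 of the 111 MIZ-1DPOZ receptor promoter peaks lay within 2000 bp of a start site from outside the families.

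Within the annotation 401 MIZ-1WT and 963 MIZ-1DPOZ receptor summits were intergenic and 62 and 161 intronic. A further 16 and 26 were in non-coding or untranslated exon sequence, and 2 and 13 were in coding exons.

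The peaks were spread over the clusters. Receptor genes formed 94 runs with less than 1 Mb between neighbouring start sites, and 44 of these held at least 5 genes and together 1894 genes. The median cluster had 11.3 MIZ-1WT and 25.9 MIZ-1DPOZ peaks per Mb, and the ranges were 0 to 22.9 and 10.4 to 46.8. In 29 clusters the MIZ-1WT density and in 30 the MIZ-1DPOZ density was below that of the rest of the genome. No cluster was without a MIZ-1DPOZ peak, 2 were without a MIZ-1WT peak, and 42 of 44 had more MIZ-1DPOZ than MIZ-1WT peaks. The MIZ-1DPOZ list was also the denser in the rest of the genome, at 29.6 against 13.0 peaks per Mb. The clusters without a MIZ-1WT peak were small, with territories of 0.188 and 0.119 Mb. The largest cluster, from Olfr987 to Olfr1274-ps on chromosome 2, held 287 genes in 4.50 Mb and 10.0 and 20.9 peaks per Mb.

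The 3 clusters of highest MIZ-1DPOZ density held 4, 5 and 8 peaks, and their intervals were wide. The highest MIZ-1DPOZ densities were found from Vmn2r-ps15 to Vmn2r-ps20 on chromosome 4 (46.8 per Mb, interval 12.8 to 120), from Olfr211 to Olfr215 on chromosome 6 (43.3) and from Olfr465-ps1 to Vmn2r-ps109 on chromosome 13 (42.5, 18.3 to 83.7). The lowest were from Olfr288 to Olfr278-ps1 on chromosome 15 (10.4, 1.26 to 37.7), from Olfr1416 to Olfr12 on chromosome 1 (14.1, 1.71 to 51.0) and from Vmn2r90 to Vmn1r-ps150 on chromosome 17, where 55 peaks fell in 2.75 Mb. The first 2 of the lowest had as many MIZ-1WT as MIZ-1DPOZ peaks, 2 in each list. The 78 genes of the 50 smaller runs together had 12.4 and 30.4 peaks per Mb.

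**Figure D4:**
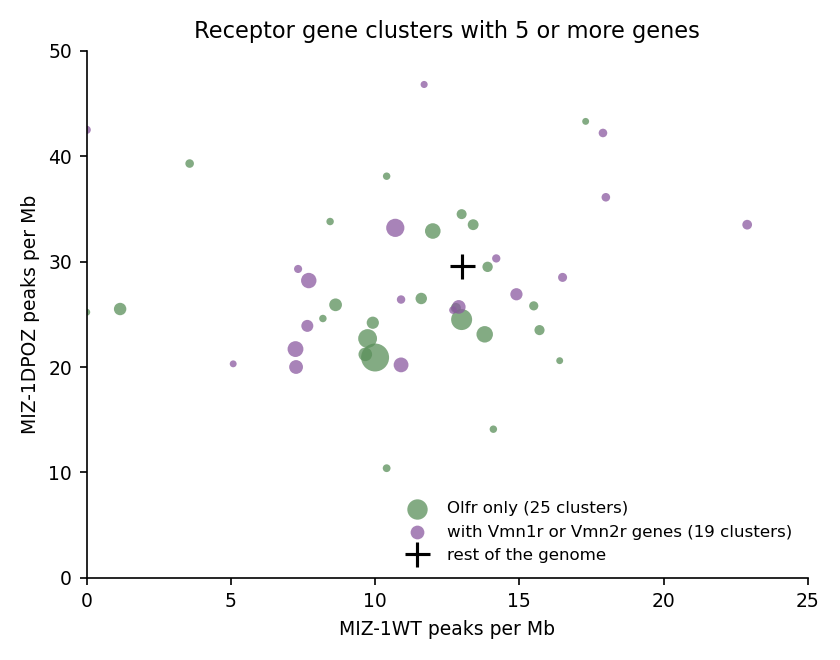
MIZ-1WT (horizontal) against MIZ-1DPOZ (vertical) peaks per Mb in the 44 receptor gene clusters with at least 5 genes; the area of a point grows with the number of genes, and the cross marks the rest of the genome at 13.0 and 29.6. Clusters of Olfr genes alone (green, 25) and clusters with Vmn1r or Vmn2r genes (purple, 19) were interspersed around it.

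At least 1 peak was nearest to 377 of 1972 receptor genes (19.1%) in the MIZ-1WT list and to 733 (37.2%) in the MIZ-1DPOZ list, against 37.6 and 59.6% of all genes. The genes with the most MIZ-1WT peaks were Vmn2r7 with 5, and Olfr289-ps1, Olfr478 and Vmn1r41 with 4 each. In the MIZ-1DPOZ list they were Vmn2r69 with 8, Olfr1402 with 7, and Olfr289-ps1, Olfr744 and Olfr8 with 6 each. The territory of Vmn2r69 measured 0.0865 Mb.

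Overlap between the lists was somewhat below that of peaks in general. By 1 bp or more, 233 of 481 MIZ-1WT receptor peaks (48.4%, 44 to 52.9) overlapped a MIZ-1DPOZ peak, against 53.7% of all, and 222 of 1163 MIZ-1DPOZ receptor peaks (19.1%, 16.9 to 21.4) overlapped a MIZ-1WT peak, against 22.1% of all. These shares depended on the lists compared. With peaks of −log10 q of 5 or more they were 77.5 and 14.2%, and with lists of equal length 41.4 and 34.2%. The shares over all peaks were not computed at these settings, so the comparison with peaks in general covers the full lists only. Overlap went with base composition. Among MIZ-1WT receptor peaks with a GC content of at least 60% it was 93.0%, and among those under 45% it was 9.32%, compared with 81.2 and 14.4% elsewhere. For MIZ-1DPOZ receptor peaks the corresponding shares were 36.3 and 11.2%, and elsewhere 33.2 and 18.3%.

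At peaks present in both lists, the fragments at the summit were compared after scaling to depth. Each MIZ-1WT peak was set against the tallest MIZ-1DPOZ peak it overlapped, a choice that favours higher ratios. Each was read at its own summit, and 1 MIZ-1DPOZ peak could serve more than 1 MIZ-1WT peak. The summits can lie apart, since 150 of the 481 MIZ-1WT receptor peaks had a MIZ-1DPOZ summit within 100 bp. The log2 ratio of MIZ-1DPOZ over MIZ-1WT fragments had a median of 1.14 (0.97 to 1.29) at the 233 shared receptor peaks, and of 0.39 at all 18381 shared peaks. The 37 receptor peaks with a single-copy summit had a median of -0.01 (-0.27 to 0.22), and 20 of them were lower in MIZ-1DPOZ cells. At the 152 multi-copy summits with a GC content of at least 60% it was 1.38 (1.33 to 1.45) with 2 lower, and at the 44 other multi-copy summits 0.39 (0.04 to 0.67) with 15 lower. Among all shared peaks these classes had medians of 0.09, 1.33 and 0.16. The exact binomial interval of a single peak lay above equality for 133 of the 233 receptor peaks (57.1%), against 27.8% of all shared peaks. Among multi-copy summits these shares were 66.8 and 56.2%, and among single-copy summits 5.41 and 1.89%. The interval lay below equality for 2 receptor peaks (0.858%, against 1.16% of all), the peak near Vmn2r-ps139 and the strongest near Vmn1r-ps2.

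Single-copy receptor peaks differed among themselves. Besides the pair near Vmn1r-ps2, of which the weaker at chr4:3090508-3091164 had 38 and 35 fragments, the leading single-copy MIZ-1WT peaks were those of Vmn2r102, Vmn2r77 and Olfr855. The last, at chr9:19575355-19575591, had 20 and 22 fragments, and its GC content was 35.3%. The same Olfr855 peak was also among the 5 leading single-copy peaks of the MIZ-1DPOZ list, whose other 4 had GC contents between 59.7 and 65.2%. At Vmn1r-ps60, with 59.7% GC, the summit had 57 fragments against 23 in the MIZ-1WT library, a ratio of 1.85 (1.12 to 3.15). Peaks near Vmn2r89 (63.7% GC) and Vmn2r15 (65.2% GC) had 30 and 23 fragments and no MIZ-1WT partner. The Olfr18 peak, in an intron of the zinc finger gene Zfp560, had 26 fragments against 7, a ratio of 2.77 (1.17 to 7.56). A single-copy summit was not necessarily free of repeats. The windows of the 5 MIZ-1DPOZ leaders were masked in 73.1% (Vmn1r-ps60) to 100% (Vmn2r89 and Vmn2r15) of their bases. In the MIZ-1WT list the pair near Vmn1r-ps2 was masked in 95.5 and 82.1% and Olfr855 in 92.0%. Vmn2r102 and Vmn2r77 were lower, at 47.8 and 33.8%. The pair near Vmn1r-ps2 also lay on a high local background, of 5.71 and 5.65 fragments, where the commonest value of the MIZ-1WT list was 0.860.

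**Figure D5:**
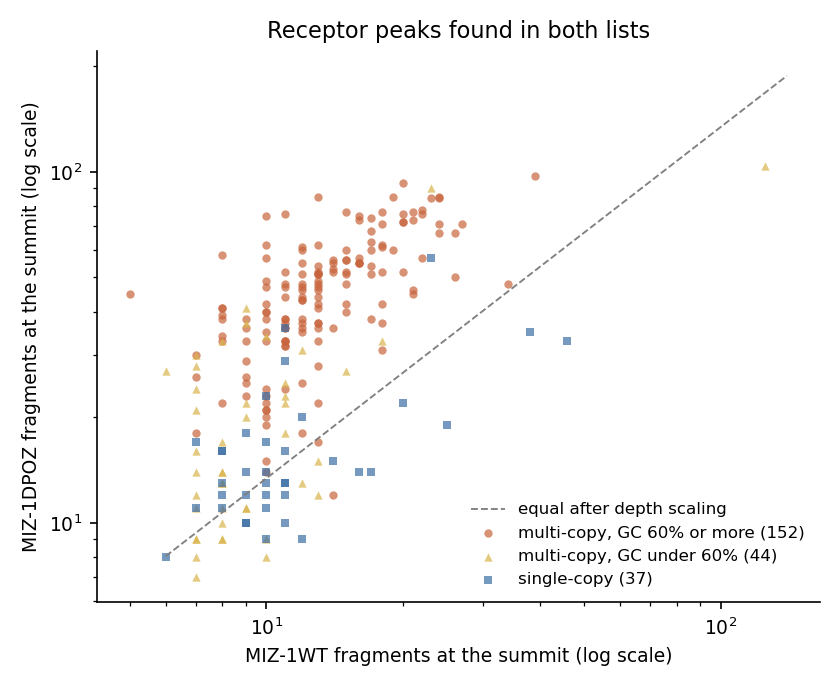
Fragments at MIZ-1WT (horizontal) and MIZ-1DPOZ (vertical) summits, both on log scales, for the 233 MIZ-1WT receptor peaks that overlapped a MIZ-1DPOZ peak. The tallest overlapping MIZ-1DPOZ peak was taken, at its own summit. The dashed line marks equal height after scaling to depth. Multi-copy summits of at least 60% GC (orange circles, 152) lay above the line except for 2, while single-copy summits (blue squares, 37) lay on both sides.

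The sequence groups differed in the same comparison. The median log2 ratio was 1.40 (1.36 to 1.48) for the 86 shared peaks of the Olfr933 group and 1.30 (1.16 to 1.55) for the 41 of the Vmn2r72 group. It was 0.72 (0.36 to 1.40) for the 20 of the Olfr335-ps group and 0.28 (-0.13 to 0.73) for the 22 of the Vmn1r47 group. Of the 86 MIZ-1WT peaks in the Olfr933 group, 86 overlapped a MIZ-1DPOZ peak, and of the 132 in the Vmn1r47 group 22 did. How reads that fit many places were treated before peak calling is not stated, so the height of a multi-copy peak cannot be attributed to its own place.

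For comparison, promoter peaks were counted at genes that act with the receptors in olfactory and vomeronasal neurons. The list came from general knowledge and was not limited to genes silent in other cells. Of 20 such genes 4 had a MIZ-1WT promoter peak, 10 a MIZ-1DPOZ promoter peak and 10 neither, and each of the peaks had a single-copy summit. Of the protein-coding genes outside the receptor families 29.3 and 46.8% had a promoter peak in these lists. The 4 found in both lists were Gnal, the G protein subunit that couples odorant receptors, Lhx2, a transcription factor of olfactory neurons, Lbr, the lamin B receptor of the nuclear envelope, and Gnao1, the G protein subunit of type 2 vomeronasal receptor neurons. Their summits had 11 and 12, 13 and 17, 6 and 10, and 9 and 16 fragments. In the MIZ-1DPOZ list alone, Adcy3, Reep1, Ldb1, Emx2, Gnai2 and Gng13 had promoter peaks, of 11, 20, 24, 15, 21 and 12 fragments. The olfactory channel genes Cnga2, Cnga4, Cngb1 and Ano2, the vomeronasal channel gene Trpc2, and Omp, the olfactory marker protein, had none in either list. The same held for Rtp1, Rtp2, Gng8 and Stoml3.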

How the data were processed

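MIZ-1 ChIP-seq peaks of B220+ splenocytes were analysed as 2 deposited peak lists, 1 for each genotype, each called by the authors against its input. The submitters' processing notes list Bowtie2 2.2.6 and MACS2 2.1.0 with mm10, while the study's methods name Trimmomatic, bwa and another MACS2 release. The threshold of the calls, and whether duplicates or reads with several matches were kept, are not given in the sources used here. The deposited columns used were the fold enrichment at the summit, a ratio over the local background, and the −log10 p and −log10 q values, which the authors took from MACS2. The input libraries had no file of their own and entered only through the peak calling.

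The number of fragments at each summit was solved from fold enrichment and −log10 p under the formulas of MACS2 (tolerance 0.002, 100% of peaks solved in both lists) after a test on simulated data. Depth was scaled by 1.34, the ratio of the commonest local backgrounds per bp. Peaks on the standard chromosomes (34207 and 78356 of 34209 and 78357) were assigned to the nearest of the start sites of 55413 GENCODE M21 basic genes by the distance from the edge of the peak. Sequence, soft-masking and copy counts came from the GRCm38 reference. Densities carry exact Poisson, shares 95% Wilson and pileup ratios exact binomial intervals. Medians carry order-statistic intervals. Density was also compared with the rest of the genome reweighted in 1 kb bins by GC content in steps of 5% and by masked share in steps of 10%. Scripts ran under Python 3.11.15 with matplotlib 3.10.9, numba 0.67.0, SciPy 1.17.1, pandas 2.3.3 and NumPy 2.4.6.

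Named peaks were the 5 of highest −log10 q per list, the 5 highest among single-copy summits, at promoters of protein-coding receptors and among shared promoter peaks, the 3 genes with the most peaks, the 3 clusters of highest and of lowest density, and Vmn2r102 and Olfr928-ps1. The sequence groups and the single-copy unmasked promoter peaks were chosen after their values were seen. The members, gene lists and named genes were chosen with earlier results of these data known. Alternatives were a minimum −log10 q of 5, lists of equal length, single-copy summits, assignment by the summit, protein-coding receptors, a promoter window of 500 bp, masking over the whole peak, and stricter overlap.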

Additional observations from a re-analysis of the deposited data

How the results depend on the processing

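No paired analysis was possible because the ChIP libraries were unreplicated. Of 79 values recomputed, 42 stayed within the interval of the reported value. Assignment by the summit moved none of them. The density relative to the rest was 1.61 (MIZ-1WT) and 1.93 (MIZ-1DPOZ) with the rest standardised to GC and 0.929 and 1.09 with GC and masked share, both chosen after seeing the data. Over single-copy summits it was 0.315 and 0.411, and with equal list lengths 0.961 for MIZ-1DPOZ. Single-copy summits also moved the share of the list to 0.531 and 0.691%, the promoter share to 13.8 and 17.2%, genes with a promoter peak to 0.659 and 2.54%, the repeat share to 73.4 and 72.4% and overlap to 31.9 and 9.74%. With both lists held to single-copy summits the log2 pileup ratio was -0.10 (-0.28 to 0.16, 30 peaks), an interval that includes 0. Under a stricter limit of 5 on −log10 q, promoter-peak genes fell to 0.862 and 3.19%, the MIZ-1WT promoter share was 13.2%, and overlap was 77.5 and 14.2%. Equal list lengths gave a MIZ-1DPOZ list share of 1.60%, promoter genes of 2.48% and overlap of 41.4 and 34.2%. Protein-coding receptors alone made up 1.06 and 1.09% of the lists. A promoter window of 500 bp left promoter shares of 1.04 and 1.46% and genes at 0.254 and 0.862%. Reciprocal overlap of 50% gave 27.7 and 11.4%, and summits within 100 bp 31.2 and 12.9%, computed for receptor peaks only. Apart from these the cause was not tested. The depth of the libraries, unknown in reads, and the single library per genotype limit each value.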
